A study of Homo sapiens with 4 samples.

Results

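SLC5A2 encodes SGLT2, the sodium-coupled glucose carrier of the kidney. It was read here beside 7 genes of the SLC2A family of facilitative sugar transporters: SLC2A1, SLC2A3, SLC2A6, SLC2A8, SLC2A10, SLC2A12 and SLC2A13. The 8 genes were taken by symbol from the 24014 genes of the deposited count table. Of these, SLC5A2 was chosen by its counts in the comparison described here, so its values are given as a description with no test. The other 7 were chosen for their family, with their levels in these libraries known.

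The RNA came from SK-N-SH, a human neuroblastoma cell line whose cultures hold adrenergic (neuroblast-like) and mesenchymal (substrate-adherent) cells. Per the treatment labels all cells had received a lentivirus, which was an empty vector in the 2 control libraries (titled WT) and carried the long non-coding RNA AP1AR-DT in the 2 AP1AR-DT_OE libraries. The labels call the RNA AC109347.1, except that for AP1AR-DT_OE replicate 2 the genotype and treatment name AC109347.2, and its title, with AC109347.1, was followed. No label says that the 2 libraries of a group came from separate cultures, so p-values measure only the spread between these libraries, which may be technical. The libraries held between 21988065 and 26184599 counts. AP1AR-DT (ENSG00000260526, listed as RP11-73K9.2) had 3 and 18 counts under the empty vector and 680 and 1065 counts with AP1AR-DT_OE, as the group names say. Every measured adrenergic marker (7 of 8 listed, TH not analysed here) and mesenchymal marker (5 of 5) stood above 12 counts in each library. That floor is 3 read pairs, since a pair was worth about 4 counts in this table, and it covers counting error only.

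Of the routes by which sugar enters a cell, 2 are compared here. Facilitative carriers of the GLUT family (SLC2A genes) let glucose run down its gradient. The sodium-glucose cotransporters (encoded by some of the SLC5A genes) use the inward sodium gradient to pull it uphill. SGLT2 does this in the proximal tubule of the kidney, where it takes back filtered glucose and is the target of the gliflozin drugs. Neural and tumour cells mostly use GLUT1 and GLUT3.

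The 250 bases before the RefSeq start of SLC5A2 and of SLC2A1 are shown (GRCh38.p14), the first as the gene the results turn on and the second as the most abundant member here. The SLC5A2 window is chr16:31482873-31483122 on the plus strand, and the SLC2A1 window is chr1:42958869-42959118 on the minus strand. Both run 5′ to 3′. The deposited table starts SLC5A2 at 31483002, inside its window. The capitals mark GC boxes (GGGCGG on either strand) and, in SLC2A1, a CCAAT box and a TATAAA box.

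SLC5A2: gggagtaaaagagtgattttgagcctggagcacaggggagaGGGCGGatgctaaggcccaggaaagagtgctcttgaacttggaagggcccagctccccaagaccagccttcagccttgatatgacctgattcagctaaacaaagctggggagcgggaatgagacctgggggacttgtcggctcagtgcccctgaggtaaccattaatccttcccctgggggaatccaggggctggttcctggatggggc

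SLC2A1: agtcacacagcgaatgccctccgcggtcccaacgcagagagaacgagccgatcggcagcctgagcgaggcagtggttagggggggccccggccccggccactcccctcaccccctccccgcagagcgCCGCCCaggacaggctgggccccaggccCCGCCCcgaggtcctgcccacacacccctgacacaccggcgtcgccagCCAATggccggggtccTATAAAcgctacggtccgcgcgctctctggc

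The SLC5A2 window held 57.2% G and C, beside a median of 58% over the 35116 promoter windows of the RefSeq table, and the SLC2A1 window held 72.4%. SLC2A1 was the only member with TATAAA, which 10.7% of windows hold on either strand. The CCAAT box, in 32.0% of windows, occurred in SLC2A1, SLC2A6, SLC2A8 and SLC2A13, and the E-box CACGTG, in 6.34% of windows, occurred in SLC2A13 alone. The GC box, present in 42.6% of all windows, occurred once in SLC5A2, 2 times in SLC2A1, 3 times in SLC2A10, 4 in SLC2A6, 5 in SLC2A13 and 6 in SLC2A8, and SLC2A12 had no match. The core motif of NRF1, a factor the study worked on, was in none of the 7 windows and in 5.07% of all. These are letter matches, not sites. The GC box and the NRF1 core are both rich in G and C and can overlap. SLC2A3 was not matched.

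SLC5A2 (ENSG00000140675, chr16:31483002-31490860 in the deposited table, GRCh38) stood at 45 and 33 counts in control replicates 1 and 2 and at 298 and 647 counts in AP1AR-DT_OE replicates 1 and 2. Both AP1AR-DT_OE libraries lay above both controls, and the higher of them held more than the other 3 libraries together. Normalized read counts (counts divided by the DESeq2 size factor of the library) were 51.3 and 25.5 in control and 327 and 642 in AP1AR-DT_OE. The means were 38.4 ± 18.2 and 485 ± 223 (SD, n = 2), which is 12.6-fold, and the fitted Log2FC was 3.67 with a standard error of 0.61. In bulk RNA, more cells with SLC5A2 RNA and more of it per cell cannot be told apart.

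The depth behind these values was low in the controls. At 4 counts a pair they came from about 11 and 8 read pairs, with exact 95% Poisson intervals of 5.49 to 19.7 and of 3.45 to 15.8 pairs. In AP1AR-DT_OE there were about 74 pairs (58.1 to 92.9) and 162 pairs (138 to 189). The intervals of the control libraries overlapped each other, whereas those of the AP1AR-DT_OE libraries did not, so the gap between replicates there was wider than counting error. Within the control group SLC5A2 normalized counts differed by a log2 ratio of -1.01 from replicate 1 to replicate 2. Leaving out AP1AR-DT_OE replicate 2 gave a Log2FC of 3.09, and leaving out control replicate 1 gave 4.25.

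SLC5A2 shares its place on chromosome 16 with genes on the opposite strand. C16orf58 (ENSG00000140688, now named RUSF1) runs into its 3′ end and has 1390 bases of exon in common with it, 31.1% of the 4468 merged exon bases of SLC5A2 in GENCODE v44. The lncRNA AC026471.6 has 429 exon bases in common with it, or 9.60%. The library kit named in the labels does not mark strand, so reads from the shared bases cannot be told apart. Of 9 annotated SLC5A2 transcript models, 6 overlap C16orf58 exons, and 2 short models of 498 and 334 bases lie wholly inside them. The 14-exon coding model of 2267 bases has 25.9% of its bases there.

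C16orf58 had 5865 and 4806 counts in control and 5184 and 3902 in AP1AR-DT_OE. The groups overlapped, and every library held several times more C16orf58 than SLC5A2. Its normalized means were 5194 ± 2102 and 4780 ± 1282 (SD, n = 2), with a Log2FC of -0.12 (SE 0.48). AC026471.6 stayed low, at 20 and 14 counts in control and 18 and 16 in AP1AR-DT_OE.

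When the counts of the 3 overlapping genes were summed, the locus held 5930 and 4853 counts in control and 5500 and 4565 in AP1AR-DT_OE. The sum overlapped between groups. Normalized, it averaged 5249 ± 2129 and 5282 ± 1062 in control and AP1AR-DT_OE (SD, n = 2), and its Log2FC was 0.0093 with a 95% interval of -0.92 to 0.94 (DESeq2 adjusted p = 1.00). SLC5A2 made up 0.759% and 0.680% of the summed counts in control and 5.42% and 14.2% in AP1AR-DT_OE. C16orf58 made up most of the sum, and the difference in SLC5A2 between the group means was small beside the spread of the sum between replicates, so the sum says little about SLC5A2 itself. SLC5A2 was chosen by these counts, so the gap between groups in its share of the locus is a description and no test. The 2 control libraries differed in C16orf58 by more normalized counts than SLC5A2 held in any library. The deposited table gives counts per gene and not per exon, and whether the added SLC5A2 reads fell in the shared bases was not tested.

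**Figure D1:**
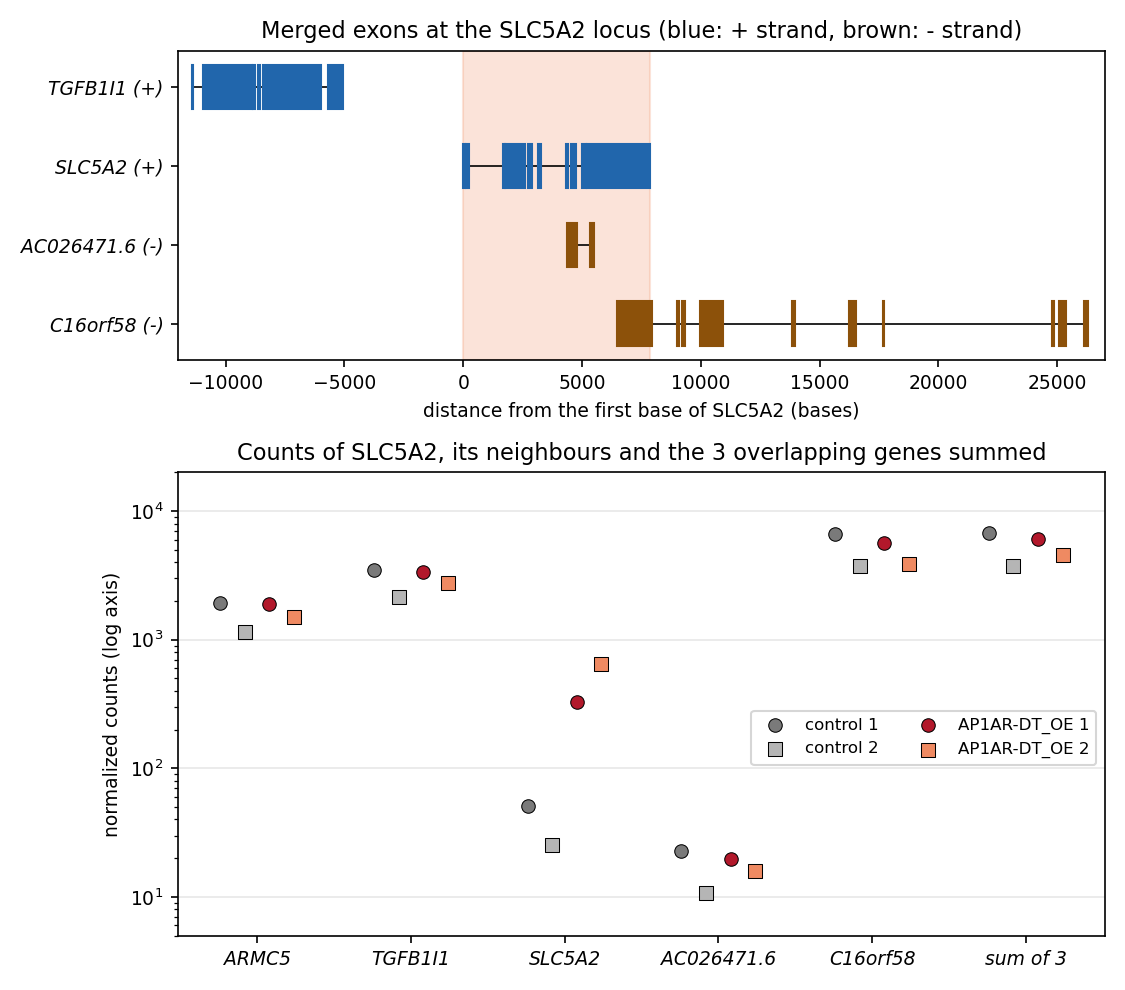
Exons of SLC5A2 and its neighbours along the locus (upper panel, distance in bases from the first base of SLC5A2, shaded span SLC5A2) and normalized counts per library on a log axis (lower panel, grey control, red and orange AP1AR-DT_OE). SLC5A2 lies at 51.3 and 25.5 in control and at 327 and 642 in AP1AR-DT_OE, while C16orf58 and the sum of the 3 overlapping genes overlap between groups.

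Of the 8 measured genes within 50 kb of SLC5A2, overlapping genes included, DESeq2 called 0 (adjusted p under 0.05). That compares with 33 of all 24014 genes, or 0.137%. At an unadjusted p under 0.05 it was 0 too. The edgeR quasi-likelihood test called 0 of the 7 it tested and 0 of the whole table. RP11-452L6.1 had 28 and 42 counts in control and 32 and 39 in AP1AR-DT_OE (Log2FC 0.20, SE 0.90). Normalized, its groups did not overlap, as for 6.34% of the 17612 genes above the floor in that direction. TGFB1I1, a focal adhesion coactivator upstream of SLC5A2, had 3059 and 2768 counts in control and 3061 and 2779 in AP1AR-DT_OE (Log2FC 0.12). ARMC5, known as an adrenal tumour suppressor, had 1678 and 1484 against 1730 and 1515 (Log2FC 0.15).

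Of the 7 facilitative transporters, 0 were called by DESeq2 (adjusted p under 0.05) in either direction, against 33 of all 24014 genes, or 0.137% (0.0833% higher and 0.0541% lower). The same held at an unadjusted p under 0.05 (0 of 7) and with the edgeR quasi-likelihood test (0 of the 6 it tested), which called 0 genes of the whole table, with 112 at an unadjusted p under 0.05. For the 6 above the floor in at least 1 library the adjusted p was 1.00 each and the median Log2FC was 0.038, beside -0.029 over the 17612 genes of the table above that floor. SLC2A12 was at or under the floor everywhere.

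SLC2A1 (ENSG00000117394, chr1:42925353-42958893) encodes GLUT1, the carrier of basal glucose uptake in most cells and at the blood-brain barrier. It had 3193 and 2833 counts in control and 3403 and 2640 in AP1AR-DT_OE. The groups overlapped, with replicate 1 the higher in both. Normalized means were 2911 ± 1026 and 3177 ± 787 (SD, n = 2), for a Log2FC of 0.13 (SE 0.47, 95% interval -0.80 to 1.05).

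SLC2A3 (ENSG00000059804, chr12:7919230-7936187) encodes GLUT3, the high-affinity carrier of neurons. Its counts were 301 and 590 in control and 368 and 391 in AP1AR-DT_OE. The AP1AR-DT_OE libraries both fell between the controls. Means were 399 ± 79.4 and 396 ± 11.0 normalized counts (SD, n = 2), and the Log2FC was -0.012 (SE 0.49, 95% interval -0.97 to 0.94). SLC2A14, a near-identical copy beside it, was not analysed here, and reads could be split between them, so the SLC2A3 count is uncertain.

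GLUT6 and GLUT8 sit mainly on membranes inside the cell rather than at its surface. SLC2A6 (ENSG00000160326, chr9:133471094-133479127) had 1167 and 1115 counts in control and 1075 and 910 in AP1AR-DT_OE, or 1095 ± 332 and 1041 ± 195 normalized counts (SD, n = 2). SLC2A8 (ENSG00000136856, chr9:127397138-127408424) had 775 and 811 against 767 and 766, or 754 ± 182 and 801 ± 57.3 normalized counts. Both overlapped between groups after normalization. The Log2FC was -0.072 (SE 0.47, 95% interval -0.999 to 0.86) for SLC2A6 and 0.087 (SE 0.47, 95% interval -0.82 to 1.00) for SLC2A8.

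SLC2A10 (ENSG00000197496, chr20:46709649-46736347) encodes GLUT10, the gene of arterial tortuosity syndrome. It had 752 and 1338 counts in control and 763 and 964 in AP1AR-DT_OE, and the ranges overlapped. Normalized means were 944 ± 124 and 897 ± 84.8 (SD, n = 2), with a Log2FC of -0.075 (SE 0.45, 95% interval -0.96 to 0.81).

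SLC2A13 (ENSG00000151229, chr12:39755025-40106089) encodes HMIT, a proton-coupled myo-inositol carrier of the brain rather than a glucose carrier. It is counted with the facilitative members here for its family alone. Its counts of 14 and 34 in control and 33 and 28 in AP1AR-DT_OE were the lowest of any facilitative member above the floor. After normalization the values were 15.9 and 26.2 in control and 36.2 and 27.8 in AP1AR-DT_OE, so the groups did not overlap, as was true of 6.34% of the 17612 genes in the same direction and of 13.0% in either. The Log2FC of 0.59 had a standard error of 1.01 and a 95% interval of -1.39 to 2.58.

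SLC2A12 (ENSG00000146411, chr6:133987581-134052624) encodes GLUT12, a carrier of muscle and fat. It was listed at 0 in both controls and in AP1AR-DT_OE replicate 2 and at 4 counts, 1 read pair, in AP1AR-DT_OE replicate 1. A library at 0 allows up to 12 counts. No fold is given, as both groups lay at or under the floor, and 51.2% of its exon bases lie in exons of TBPL1 on the opposite strand.

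**Figure D2:**
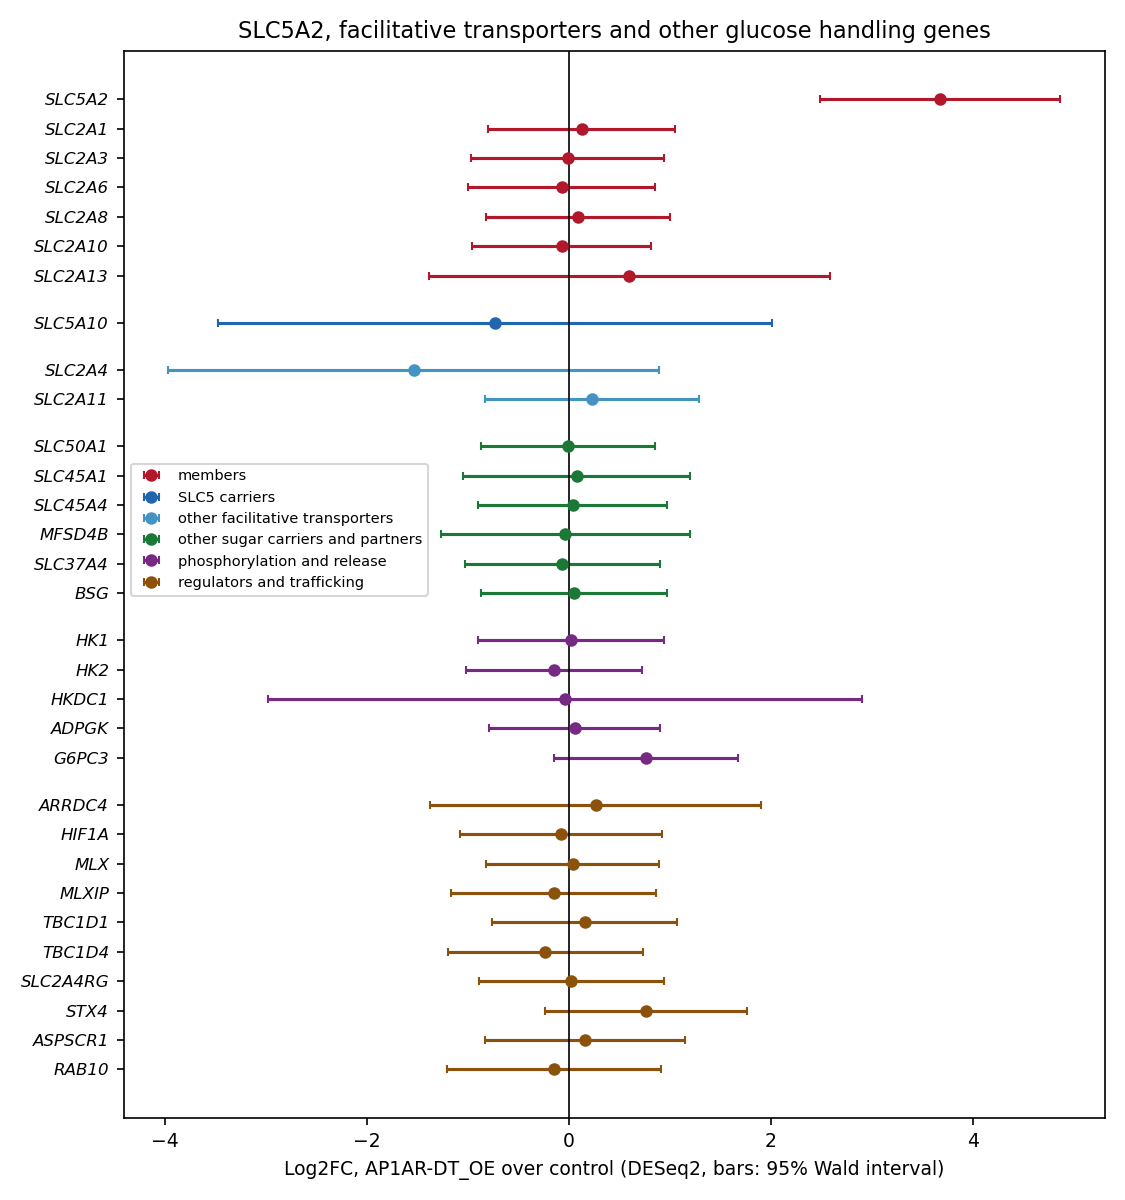
Log2FC of AP1AR-DT_OE over control for SLC5A2, the facilitative members and the other glucose handling genes above the floor (points, DESeq2 estimates from 2 against 2 libraries, bars, 95% Wald intervals), coloured by sub-list. SLC5A2 at 3.67 was picked with this value known, so its bar shows the error of the estimate and no test, and the interval of each other gene holds 0.

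Levels of different genes were compared as normalized counts per kb of the longest annotated transcript. In control, SLC5A2 ranked 6 of the 8 members at 15.5 counts per kb, with 20.8 and 10.3 in its libraries. Above it came SLC2A1 at 860 counts per kb, SLC2A8 at 352, SLC2A6 at 320.3, SLC2A10 at 223 and SLC2A3 at 90.4. SLC2A13 at 2.92 and SLC2A12 at 0 lay below. SLC2A8 and SLC2A6 overlapped in range and were not told apart, while each other neighbouring pair in this order was apart in its control libraries.

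In AP1AR-DT_OE, SLC5A2 reached 196 counts per kb and ranked 5, with 132 and 260.3 in its libraries. SLC2A1 remained first at 939 counts per kb, followed by SLC2A8 at 373, SLC2A6 at 305 and SLC2A10 at 212. The ranges of SLC2A10 and SLC5A2 overlapped, so that order was not told apart, and without AP1AR-DT_OE replicate 1 SLC5A2 ranked 4. SLC2A3 followed at 89.7 counts per kb, below SLC5A2 in both AP1AR-DT_OE libraries and above it in both controls. SLC2A13 was at 4.43 and SLC2A12 at 0.394. The lengths come from annotation, and the longest SLC5A2 model, at 2467 bases, is a retained-intron transcript.

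**Figure D3:**
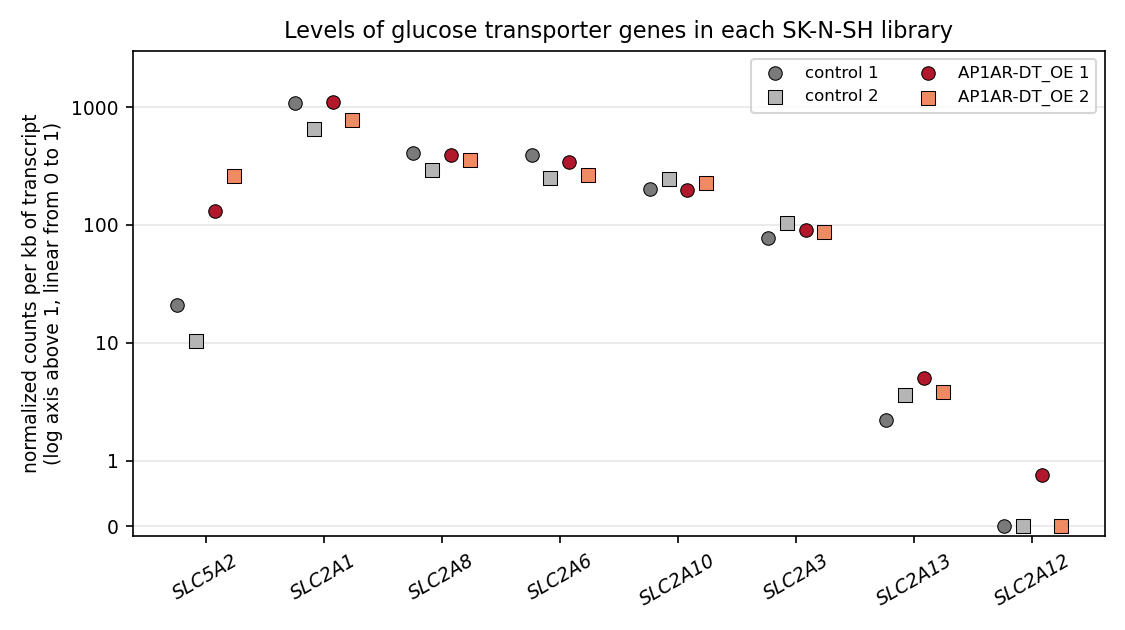
Normalized counts per kb of transcript for the 8 genes in each library (y axis, logarithmic above 1 and linear below, grey control, red and orange AP1AR-DT_OE). SLC5A2, chosen by its counts in this comparison, lies at 20.8 and 10.3 in control and at 132 and 260.3 in AP1AR-DT_OE. Of the others only SLC2A13, near the floor, has groups that do not overlap. That holds for 6.34% of the 17612 genes above the floor in the same direction and for 13.0% in either.

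Within a library the ratio of 2 genes does not depend on the size factor. SLC2A1 exceeded SLC5A2 per kb 51.7 and 62.6 times in the controls and 8.33 and 2.97 times in the AP1AR-DT_OE libraries. SLC2A3 exceeded it 3.74 and 9.99 times in control, and in AP1AR-DT_OE the ratio was 0.690 and 0.338. Of the summed counts per kb of the 8 genes, SLC5A2 took 0.954% and 0.666% in control and 5.84% and 13.2% in AP1AR-DT_OE. These shares averaged 0.810 ± 0.204% and 9.52 ± 5.21% (SD, n = 2) and did not overlap, a gap that follows from choosing SLC5A2 by its counts.

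The other shares overlapped for SLC2A1, SLC2A3, SLC2A10, SLC2A12 and SLC2A13. That of SLC2A13, whose normalized counts did not overlap, was 0.101% and 0.234% in control and 0.221% and 0.195% in AP1AR-DT_OE. SLC2A1 took 49.3% and 41.7% of the sum in control and 48.6% and 39.3% in AP1AR-DT_OE. SLC2A6 went from 17.9% and 16.2% to 15.2% and 13.4%, and SLC2A8 from 18.9% and 18.8% to 17.3% and 18.0%, both lower in AP1AR-DT_OE. A share must fall when another gene takes more of the sum. The 7 facilitative genes alone summed to 2158 and 1540.1 counts per kb in control and to 2136 and 1711 in AP1AR-DT_OE, which overlapped.

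**Figure D4:**
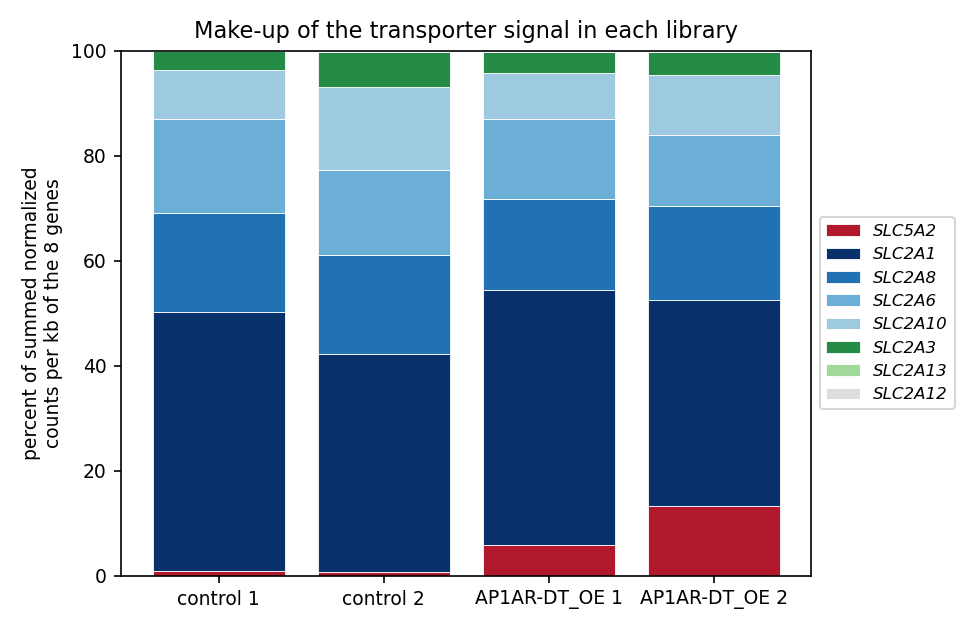
Percent of the summed normalized counts per kb of the 8 genes that each gene takes (stacked bars, y axis from 0 to 100%, 1 bar per library). SLC5A2, at the foot of each bar, takes 0.954% and 0.666% in control and 5.84% and 13.2% in AP1AR-DT_OE.

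The other genes of glucose handling were read from a list of 42, of which 29 were measured and 24 stood above the floor in at least 1 library. DESeq2 called 0 of the 29 in either direction, against 0.137% of all genes, with an adjusted p of 1.00 for each. None had an unadjusted p under 0.05 in this fit, and edgeR called 0 of the 24 it tested. Their median Log2FC above the floor was 0.020, in a range of -1.54 to 0.76. Both groups were apart, with no overlap, for 2 genes higher and 2 lower, against 6.34% and 6.61% of the 17612 genes above the floor.

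Of the sodium-coupled SLC5 relatives of SLC5A2, SLC5A10, a kidney carrier of mannose and fructose, was the 1 measured of 6 listed. It had 31 and 38 counts in control, and in AP1AR-DT_OE it was 0 and 39, so the libraries of that group disagreed. PDZK1IP1, the small membrane partner of SGLT2 known as MAP17, had at most 6 counts in any library.

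Among the remaining facilitative carriers, SLC2A11 (GLUT11) had 221 and 234 counts in control and 267 and 214 in AP1AR-DT_OE (Log2FC 0.23, SE 0.54). SLC2A4, the insulin-responsive GLUT4 of muscle and fat, had 49 and 12 against 14 and 7 (Log2FC -1.54, SE 1.24). Its groups overlapped, and 1 control library carried most of the counts. SLC2A2, the liver and islet carrier GLUT2, and SLC2A9, the urate carrier, reached at most 10 and 4 counts.

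The most abundant carriers and partners had Log2FC values near 0. BSG, the chaperone of lactate carriers, was at 0.047 (SE 0.47), SLC50A1, a sugar effluxer, at -0.013 (SE 0.44), and SLC37A4, the glucose 6-phosphate translocase, at -0.066 (SE 0.49). Of the enzymes that trap or release glucose, HK1, the main hexokinase of brain, was at 0.019 (SE 0.47) and ADPGK, a glucose kinase that uses ADP, at 0.055 (SE 0.43). G6PC3, the broadly expressed glucose 6-phosphatase, had 1937 and 4892 counts in control and 5079 and 4575 in AP1AR-DT_OE (Log2FC 0.76, SE 0.46). After normalization its groups did not overlap. SLC2A4RG, a regulator of the GLUT4 promoter, was at 0.020 (SE 0.47). MLX, the partner of the glucose sensor ChREBP family, was at 0.036 (SE 0.44), and MLXIP, a member of that family, at -0.15 (SE 0.52).

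The other genes whose groups did not overlap are named here after their values were seen. STX4, a syntaxin that docks GLUT4 vesicles, had 194 and 235 counts in control and 325 and 326 in AP1AR-DT_OE (Log2FC 0.76, SE 0.51). HK2, the inducible hexokinase, was at -0.15 (SE 0.44) and TBC1D4, which holds GLUT4 inside the cell, at -0.24 (SE 0.49). None of these passed the test across all genes.

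The genes whose pattern over the 4 libraries was most like SLC5A2 were sought among 8360 genes with a mean normalized count from 0.25 to 4 times its own. Likeness was the largest difference between the library-centred log2(normalized count + 4) profiles, so a smaller value is nearer. PCNP, a nuclear protein with PEST sequences, came nearest at 0.884 and had 34 and 74 counts in control and 500 and 1005 in AP1AR-DT_OE. FBXL8, an F-box protein, followed at 0.900 with 76 and 58 against 413 and 436. KMO, the kynurenine 3-monooxygenase of tryptophan breakdown, stood at 0.930 with 21 and 28 against 152 and 164. PAN3, of a poly(A) nuclease complex, was at 1.03 and BTN3A2, a butyrophilin, at 1.04. The next gene stood at 1.21. All 5 were lower in the controls than in AP1AR-DT_OE, as the measure makes likely. FBXL8 has 840 exon bases in common with RP11-5A19.5 on its own strand and KMO has 1691 in common with OPN3 on the opposite strand, so the counts of these 2 are uncertain.

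Markers of other cells were read beside SLC5A2. Of 9 kidney proximal tubule markers, 3 were measured. AQP1, the water channel, had 441 and 421 counts in control and 482 and 501 in AP1AR-DT_OE, and CUBN, the cubilin receptor, had 78 and 170 against 109 and 140. PDZK1IP1 was at or under the floor, and LRP2, SLC34A1, SLC22A6, SLC22A8, SLC13A3 and SLC17A1 were not analysed here. The 3 markers summed to 591 and 461 normalized counts in control and 648 and 641 in AP1AR-DT_OE, higher there with no overlap. AQP1 made up most of that sum, and AQP1, CUBN and PDZK1IP1 each overlapped between groups on their own. Of single genes above the floor, 6.34% were higher with no overlap. Adrenergic markers summed to 26691 and 21493 in control and 25558 and 23882 in AP1AR-DT_OE, and mesenchymal markers to 139498 and 109197 against 135832 and 117475, both overlapping between groups. HAND2 made up most of the adrenergic sum and VIM most of the mesenchymal sum, so these sums say little about the other markers. PRRX1, a mesenchymal transcription factor, had 2432 and 14724 counts in control and 1131 and 2263 in AP1AR-DT_OE. After normalization both AP1AR-DT_OE libraries lay below both controls (Log2FC -2.02, DESeq2 adjusted p = 0.431). Such a gap held for 6.61% of the 17612 genes above the floor, the adrenergic marker GATA3 (Log2FC -0.040) among them. The other measured adrenergic and mesenchymal markers overlapped between groups. Control replicate 2 had the most PRRX1 and the least SLC5A2, but the counting intervals of SLC5A2 in the controls overlapped. Within AP1AR-DT_OE, replicate 2 had more of both genes than replicate 1. The part of these markers in the SLC5A2 difference was not tested.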

How the data were processed

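RNA-seq counts of 4 SK-N-SH libraries were used. Per the paper's methods, the authors aligned 150-bp read pairs to hg19 with HISAT2, ran StringTie and converted its output to a read count per gene with the script that accompanies StringTie. The labels list other tools (TopHat2, HTSeq, Cuffdiff, edgeR). The annotation is not given in the sources used here. The deposited counts are whole numbers without normalization. Low values piled up at 4 and 8 (3287 and 1342 entries), hence 4 counts per read pair and a floor of 12. Gene coordinates in the table are GRCh38. Columns with fold changes and p-values from the authors' DESeq2 and edgeR tests were not used.

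Counts were fitted with DESeq2 1.42.0 in R 4.3.3 (median-of-ratios size factors 0.878, 1.30, 0.912 and 1.01, two-sided Wald test, no covariate, default independent filtering, Benjamini-Hochberg adjustment over all 24014 genes), and calls were made at an adjusted p under 0.05. The procedure was tested on simulated data. Lengths and overlaps came from GENCODE v44 (lifted to GRCh37), which held 23954 of the gene IDs, and none of its coordinates is printed. Promoter windows came from the RefSeq table of GRCh38.p14 (7 of 8 members matched). Groups followed the titles. The fits were repeated with edgeR 4.0.16 (quasi-likelihood), TMM factors, only genes with 10 or more counts in 2 or more libraries, the replicate block, counts divided by 4, overlapping genes summed, merged exon lengths, and each library left out.

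The members, the gene lists and the alternatives were chosen with earlier results of these data known. The named genes were AP1AR-DT, the members, other measured SLC2A and SLC5A genes, genes that overlap SLC5A2 or lie within 50 kb of it, called genes of the glucose handling list and the 3 of each of its sub-lists with the highest control level per kb, and the 5 genes most like SLC5A2. STX4, HK2 and TBC1D4 were added after their values were seen, and PDZK1IP1 as a marker. The list as first drawn up held 2 more genes, which are not reported here.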

Additional observations from a re-analysis of the deposited data

How the results depend on the processing

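The Log2FC of SLC5A2 was 3.64 to 3.73 under the alternatives other than the sum and left-out libraries, 3.09 to 4.25 when each library was left out, and 0.0093 when it was summed with its overlapping genes, a total that C16orf58 dominates and that says little about SLC5A2. That sum had a Log2FC of -0.34 to 0.50 with each library left out. The rank of SLC5A2 in AP1AR-DT_OE was 4 without AP1AR-DT_OE replicate 1 and 5 otherwise (4 to 5). The count of genes called over the table, 33 (196 at an unadjusted p under 0.05), was 0 with the edgeR quasi-likelihood test (112 unadjusted), 15 with counts divided by 4, 14 with same-strand overlapping genes summed, and 45 to 90 with each library left out, where a lone library is assumed to vary like the other group. The cause was not tested. Members of the SLC2A family and other glucose handling genes called stayed at 0 under every alternative run, and 0 of 231 alternative values for 21 single genes passed the threshold.

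With each library left out, the sign of the Log2FC turned for SLC2A1 (-0.18 to 0.54), SLC2A3 (-0.20 to 0.22), SLC2A6 (-0.34 to 0.28), SLC2A8 (-0.13 to 0.36), SLC2A10 (-0.20 to 0.077), SLC2A11 (-0.030 to 0.48), SLC2A4 (-2.32 to 0.27), SLC5A10 (-7.33 to 0.26), BSG (-0.30 to 0.53), SLC50A1 (-0.15 to 0.095), SLC37A4 (-0.44 to 0.39), HK1 (-0.30 to 0.45), ADPGK (-0.015 to 0.12), MLX (-0.15 to 0.27), MLXIP (-0.60 to 0.53) and SLC2A4RG (-0.32 to 0.48).

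Replicate numbers are shared between groups without a label that pairs them. With the replicate block, SLC5A2 had a Log2FC of 3.66 (edgeR 3.64), the locus sum 0.056, SLC2A3 0.0011, and 37 genes were called (edgeR 44). Of the glucose handling genes 0 were called with the block. An unadjusted p under 0.05 then held for 1 of their 29 in DESeq2 and 2 of 24 in edgeR. Over the table it held for 229 genes in DESeq2 and 437 in edgeR. Deviations of same-numbered libraries correlated at 0.550 over 13298 genes. Depth limits SLC5A2 in control, at about 11 and 8 read pairs, and SLC2A12 and SLC2A13.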
